A study of Homo sapiens with 4 samples.

Results

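The regions described here are 1467 promoter sites at which SKBR3 cells showed a peak of open chromatin in both untreated libraries and in neither library of cells given the cytokine TWEAK. The SKBR3 line derives from a breast cancer with amplified ERBB2, the gene of the HER2 receptor. Open chromatin was mapped by ATAC-seq, which reads where the Tn5 transposase can insert adaptors into DNA. The untreated group (UT) and the TWEAK group held 2 libraries each, and all 4 came from this single line. The cells were kept in optimem for 8 h of starvation and then given TWEAK at 10 ng/ml for 48 h, with fresh TWEAK once 24 h had passed. The labels carry this same protocol for all 4 libraries and call the UT cells untreated, so whether UT cells were starved likewise is not stated apart. The 4 peak lists were merged into 307691 sites where peaks overlapped by at least 1 bp, of which 49998 lay within 1 kb of an annotated start of a protein-coding gene and are called promoter sites. The 1467 members made up 2.93% of the promoter sites, while 3.79% of all merged sites (11664) had the same pattern. They were selected on the measured presence of peaks, so their absence from the TWEAK lists is the rule and not a finding, and no test was made on it. A peak here is a stretch that passed the caller's threshold in that library. In a bulk assay, a site open in fewer cells and a site less open in every cell cannot be told apart.

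TWEAK is a ligand of the tumour necrosis factor superfamily. It binds the receptor Fn14 (TNFRSF12A), which recruits TRAF adaptors and activates the classical and alternative NF-kB pathways and MAP kinases that act on AP-1. An active promoter usually holds a nucleosome-depleted stretch just upstream of its start, often in a CpG island, and many genes have several annotated starts with such stretches of unequal height.

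Most of the genes concerned kept an open promoter under TWEAK. The 1467 sites lay near starts of 1410 gene symbols, 7.06% of the 19962 protein-coding symbols tested, and 1304 of these (92.5%, 95% Wilson interval 91.0 to 93.7) had a peak in both TWEAK libraries within 1 kb of 1 or more of their starts. A promoter site open in all 4 libraries was found at 1271 of the 1410 genes (90.1%). It was found at 76% of all protein-coding symbols, but at 15130 (96.9%) of the 15615 genes that had a peak at a start in both UT libraries, the nearer comparison. Only 73 genes (5.18%, 4.14 to 6.46) had no TWEAK peak at any start. Among those 15615 genes, 87 (0.557%) lacked a TWEAK peak at every start. Of the 87, 70 were themselves genes with a lost site, which follows largely from the rule. The 0.557% and the 5.18% are therefore not a comparison of separate genes. In the opposite direction, 76 of the 1199 genes with a gained promoter site (6.34%) had no UT peak at any start. The loss of a site was thus seldom the loss of all promoter peaks of a gene.

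The sequence at the centre of 6 members is shown to illustrate what the sites look like at the ends of this range. The first 4 are among the 12 highest ranked members without a TWEAK peak within 500 bp, and the last 2 are among the 5 highest ranked members with one. They, and DTNA as a gene to name, were picked after their values were seen. Each is a stretch of 151 bp from hg38, printed 5′ to 3′ on the plus strand, with letters matching a searched motif in capitals. The stretches are chr1:160206778-160206928 in an intron of PEA15, chr1:214326527-214326677 in an intron near SMYD2, chr6:155265081-155265231 in an intron near CLDN20, chr18:34711107-34711257 near DTNA, chr4:151016016-151016166 upstream of LRBA and chr13:112587522-112587672 upstream of a TUBGCP3 start.
PEA15: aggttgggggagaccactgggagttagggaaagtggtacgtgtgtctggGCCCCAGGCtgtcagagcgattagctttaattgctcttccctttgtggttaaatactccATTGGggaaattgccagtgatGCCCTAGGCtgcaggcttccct
SMYD2: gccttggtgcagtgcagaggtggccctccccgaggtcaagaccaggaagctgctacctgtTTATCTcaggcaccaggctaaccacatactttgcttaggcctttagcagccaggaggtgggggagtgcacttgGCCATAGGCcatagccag
CLDN20: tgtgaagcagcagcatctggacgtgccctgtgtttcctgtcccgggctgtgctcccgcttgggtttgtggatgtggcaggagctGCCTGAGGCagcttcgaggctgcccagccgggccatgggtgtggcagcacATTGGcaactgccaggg
DTNA: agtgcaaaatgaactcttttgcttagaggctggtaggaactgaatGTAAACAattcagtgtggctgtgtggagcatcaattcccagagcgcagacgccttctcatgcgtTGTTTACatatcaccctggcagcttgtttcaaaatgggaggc
LRBA: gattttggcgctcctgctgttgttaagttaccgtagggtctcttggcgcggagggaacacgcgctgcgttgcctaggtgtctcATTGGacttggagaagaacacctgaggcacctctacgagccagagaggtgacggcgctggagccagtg
TUBGCP3: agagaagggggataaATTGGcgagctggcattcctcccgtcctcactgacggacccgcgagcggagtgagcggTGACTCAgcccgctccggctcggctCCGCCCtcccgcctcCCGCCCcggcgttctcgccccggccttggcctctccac
The capitals mark NFY and TFAP2 letters in PEA15 and CLDN20, GATA and TFAP2 letters in SMYD2, FOXA letters in DTNA and NFY letters in LRBA. In TUBGCP3 they mark NFY, AP-1 and SP/KLF letters. The first 4 stretches held 2, 1, 5 and 3 CpG dinucleotides, and the LRBA and TUBGCP3 stretches held 10 and 17. Other members of the same ranks went the other way, since within 100 bp of the peak centre GULP1 and CAND1, without a close TWEAK peak, held 20 and 14 CpG and VGLL4, with one, held 3.

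Low peaks made up most of the set. Heights are given as the pileup of reads recovered from the deposited value, over the background that the caller used for the whole list. The median member reached a pileup of 14 in UT replicate 1 (3.90 times the background of that list) and 11 in UT replicate 2 (4.92 times). The lowest and highest members reached 2.79 and 158 times the background in UT replicate 1 and 3.13 and 178 times in UT replicate 2. In rank within the list, the median member stood at a percentile of 21.9 in UT replicate 1 and 31.3 in UT replicate 2. Promoter sites open in all 4 libraries had median percentiles of 81.2 and 82.4 in the same lists. Gained promoter sites, listed in both TWEAK libraries but in no UT library, had median percentiles of 34.0 and 33.0 in the TWEAK lists. Only 155 members (10.6%) lay above the 50th percentile in both UT lists. The centres of the 2 UT peaks of a member were a median of 90 bp apart, against 17 bp at promoter sites open in all 4 libraries.

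**Figure D1:**
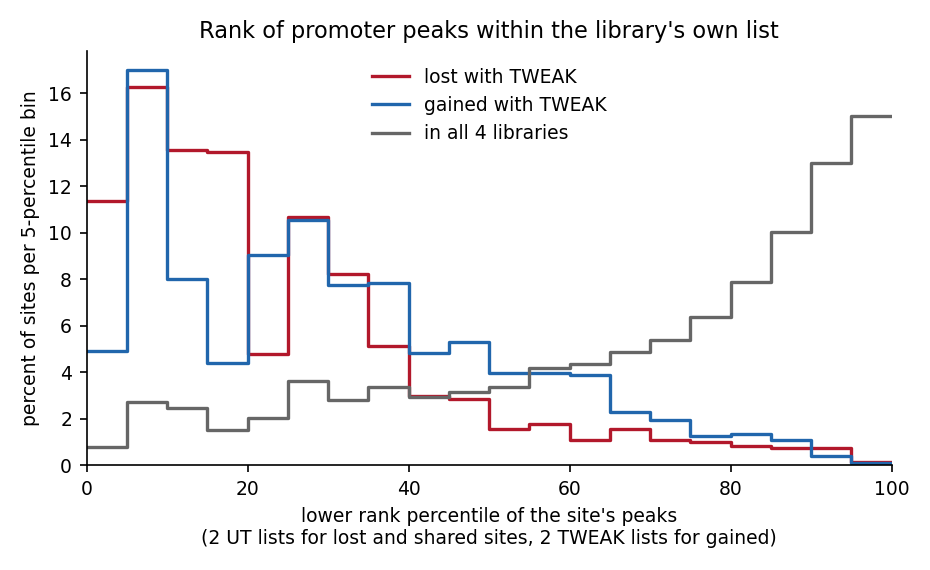
Percent of sites in each bin of 5 percentiles (y axis) by the lower of the site's rank percentiles within its library lists (x axis), for lost, gained and shared promoter sites. Lost sites crowd at the low end, with median percentiles of 21.9 and 31.3 in the 2 UT lists, while sites open in all 4 libraries rise towards the high end.

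The lists did not have equal thresholds, and this moved with the counts. The background was 3.59 reads in UT replicate 1, 2.24 in UT replicate 2, 2.63 in the first TWEAK replicate and 1.85 in the second. The lowest accepted pileup was therefore 2.79, 3.13, 3.04 and 3.79 times the background in that order, so that a site had to stand higher to be listed in TWEAK replicate 2. Of the members, 733 (49.97%, 47.4 to 52.5) reached the strictest of these minima in both UT libraries, and 427 fell below it in UT replicate 1 alone, 87 in UT replicate 2 alone and 220 in both. Gained promoter sites numbered 1183 (2.37% of promoter sites), fewer than the lost ones. That order turned when peaks of all 4 lists had to reach the strictest minimum, with 842 lost and 1467 gained, when they had to reach 5 times the background, with 635 and 1275, and at a -log10 p of at least 5, with 910 and 1030. It also turned with 1 start per gene, with 493 lost and 515 gained. Without TWEAK replicate 2 there were 2793 lost and 3859 gained sites, and without TWEAK replicate 1, UT replicate 1 and UT replicate 2 there were 3683, 5783 and 4187 lost sites and 3255, 2519 and 2659 gained ones. The direction of the balance between lost and gained promoter sites is hence not fixed by these lists. For comparison, promoter sites with a peak in 1 UT and 1 TWEAK library, a pattern that no treatment defines, numbered 621 to 1240 for each of the 4 such pairs of libraries.

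More than 1 in 2 members had a TWEAK peak close by. A TWEAK peak lay within 500 bp of the site in either library for 769 members (52.4%, 49.9 to 55.0) and in both for 566 (38.6%). It lay within 100 bp for 236 members and within 1 kb for 1018, and the median distance was 464 bp. For 130 members (8.86%) none lay within 5 kb. Of the lost sites outside promoters, 3205 of 10197 (31.4%, 30.5 to 32.3) had a TWEAK peak within 500 bp, and of the gained promoter sites 664 of 1183 (56.1%, 53.3 to 58.9) had a UT peak within that distance. Among the 769 members with a close TWEAK peak, that peak overlapped a UT peak in both UT libraries at 541 (70.4%), in 1 at 121 and in none at 107. The share rose with height, since 138 of the 155 members above the 50th percentile had a close TWEAK peak and 17 did not.

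**Figure D2:**
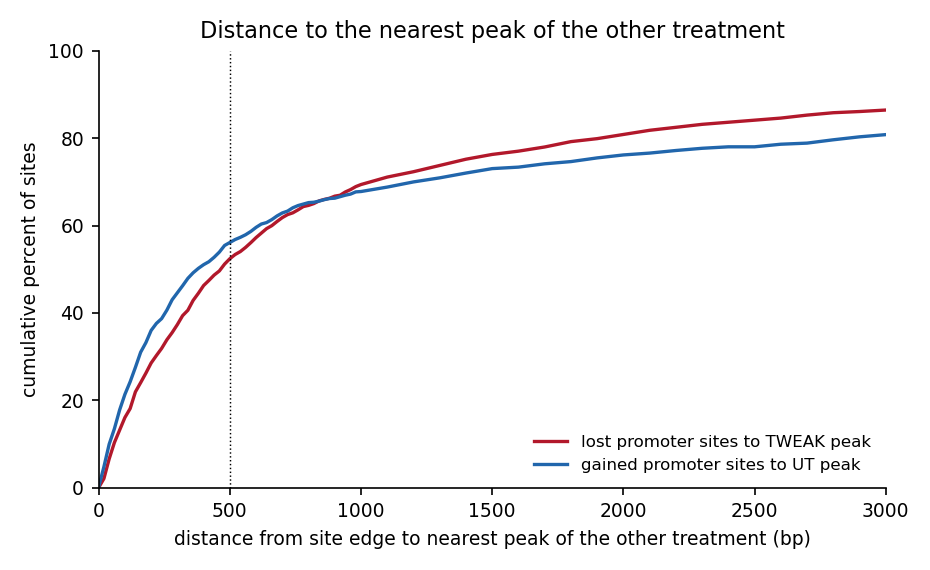
Cumulative percent of sites (y axis) by the distance from the edge of the site to the nearest peak of the other treatment (x axis, bp), for lost promoter sites to TWEAK peaks and gained promoter sites to UT peaks. At the dotted line of 500 bp the curves reach 52.4% and 56.1%.

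The start nearest to the site was often still open as well. It had a TWEAK peak within 1 kb for 926 members (63.1%, 60.6 to 65.6), in both libraries for 759, and had none for 541 (36.9%). Among the 698 members that remained when a close TWEAK peak counted as present, the share with a TWEAK peak was 30.5%. A lower share follows from the choice, since the members with a TWEAK peak within 500 bp were left out. Over all 1467 members, the highest peak within 1 kb of the nearest start, with 0 where there was none, had medians of 5.85 and 7.16 times the background in the UT libraries and of 4.94 and 5.41 times in the TWEAK libraries, lower in both. At the 759 starts with a peak in both TWEAK libraries, the highest peak within 1 kb had medians of 27.3 and 33.1 times the background in the UT libraries and of 30.004 and 32.5 times in the TWEAK libraries. Both sets of values follow in part from the rule, since the UT peak can be the lost site itself and the 759 starts were kept for their TWEAK peaks, and they are given as a description only.

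Sites open in all 4 libraries that flanked a member were compared with all shared promoter sites. There were 587 of them within 500 bp of 590 members. Both TWEAK values lay above both UT values in pileup over background at 165 of the 587 (28.1%), against 28.5% of all 26365 promoter sites in all 4 libraries, and below at 75 (12.8%) against 9.26%. On the scale of rank percentiles 60 (10.2%) lay above, against 10.1%, and 233 (39.7%) lay below, against 36.5%. Which of the 2 directions was more frequent thus depended on the scale, and on both scales the flanking sites had a share above near that of all shared sites and a somewhat larger share below, a difference that was not tested. At single flanking sites, picked for their large differences, the values of the groups lay apart. Beside the member at TIMP1, an inhibitor of matrix metalloproteinases, the shared site stood at 6.97 and 5.37 times the background in the UT libraries and at 23.5 and 21.1 times in the TWEAK libraries. Beside the member at DTX2, a Notch pathway ubiquitin ligase, it stood at 3.62 and 7.60 times in UT and at 18.2 and 20.6 times in TWEAK cells. The opposite was seen beside CYFIP1, a regulator of actin and translation, with 25.4 and 28.6 times in UT and 16.7 and 10.8 times in TWEAK cells, and beside ID4, an inhibitor of basic helix-loop-helix factors, with 11.99 and 14.3 times in UT and 6.84 and 8.66 times in TWEAK cells. The groups overlapped on neither scale at these 4 sites, which were picked from the ends of the order after their values were seen.

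The 10 highest ranked members without a TWEAK peak within 500 bp were of 2 kinds. At 4 of them the nearest start kept a strong TWEAK peak. The highest ranked lay at PEA15, a death effector domain phosphoprotein that binds ERK (chr1:160206413-160207103), with pileups of 113 and 88 reads, or 31.5 and 39.4 times the background in UT replicates 1 and 2. The nearest TWEAK peaks were 601 and 779 bp away, and the highest peak within 1 kb of the PEA15 start stood at 41.0 and 34.1 times the background under TWEAK and at 35.1 and 39.4 times in UT cells, where the value of UT replicate 2 is the lost site itself. GULP1, an adaptor of cell engulfment (chr2:188291638-188292146), had a member over its start at 23.7 and 31.8 times the background. Its neighbouring peak stood at 46.8 and 58.2 times in the UT libraries and at 44.4 and 44.9 times in the TWEAK libraries, lower in both TWEAK libraries. GPRIN2, a G protein-regulated inducer of neurite outgrowth (chr10:46555319-46555841), had a member at 19.8 and 19.7 times the background and a neighbouring peak at 37.9 and 45.6 times in UT and at 42.9 and 50.9 times in TWEAK cells, which overlapped. CAND1, the exchange factor of cullin ubiquitin ligases (chr12:67269875-67270438), had a member at 12.5 and 10.3 times the background beside a far higher peak of 108 and 140 times in UT and 106 and 112 times in TWEAK cells.

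At 5 of the other 6 the nearest start had no peak within 1 kb in either TWEAK library. Of these 5 genes, only CLDN20 lacked a TWEAK peak within 1 kb of every annotated start. ZBTB14, a zinc finger repressor (chr18:5294643-5295201), had a member at 15.6 and 23.3 times the background, and the closest TWEAK peak was 666 bp from its edge. That peak stood at 19.0 and 25.9 times in UT and at 27.7 and 27.6 times in TWEAK cells. Its rank percentiles overlapped (76.8 and 81.5 in UT, 81.6 and 77.6 in TWEAK cells). SMYD2, a lysine methyltransferase (chr1:214326352-214326865), had a member at 9.76 and 13.4 times the background, and the peak 1893 bp away stood at 56.9 and 76.0 times in UT and at 73.3 and 79.6 times in TWEAK cells. TFAP4, a basic helix-loop-helix factor (chr16:4266319-4266831), had a member at 12.3 and 9.84 times the background with the closest TWEAK peak at 2268 bp. That peak stood at 20.4 and 25.1 times in UT and at 22.8 and 21.7 times in TWEAK cells. Its rank percentiles were lower in both TWEAK libraries (77.5 and 71.7, against 78.2 and 80.9). The member at C16orf89 (chr16:5056312-5056834) stood at 10.3 and 9.39 times and the one at CLDN20, a claudin of tight junctions (chr6:155264906-155265406), at 8.64 and 10.3 times, with TWEAK peaks no nearer than 1621 and 2640 bp. The last, at CDK5RAP2, a centrosomal protein (chr9:120439063-120439592), stood at 9.20 and 9.84 times, and its start kept a peak of 5.96 times in TWEAK replicate 2 only. The nearest TWEAK peak beside ZBTB14, SMYD2 and TFAP4 was thus a peak of all 4 libraries that lay beyond 1 kb of the start, while beside C16orf89, CDK5RAP2 and CLDN20 it was found in 1 UT and 1 TWEAK library.

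**Figure D3:**
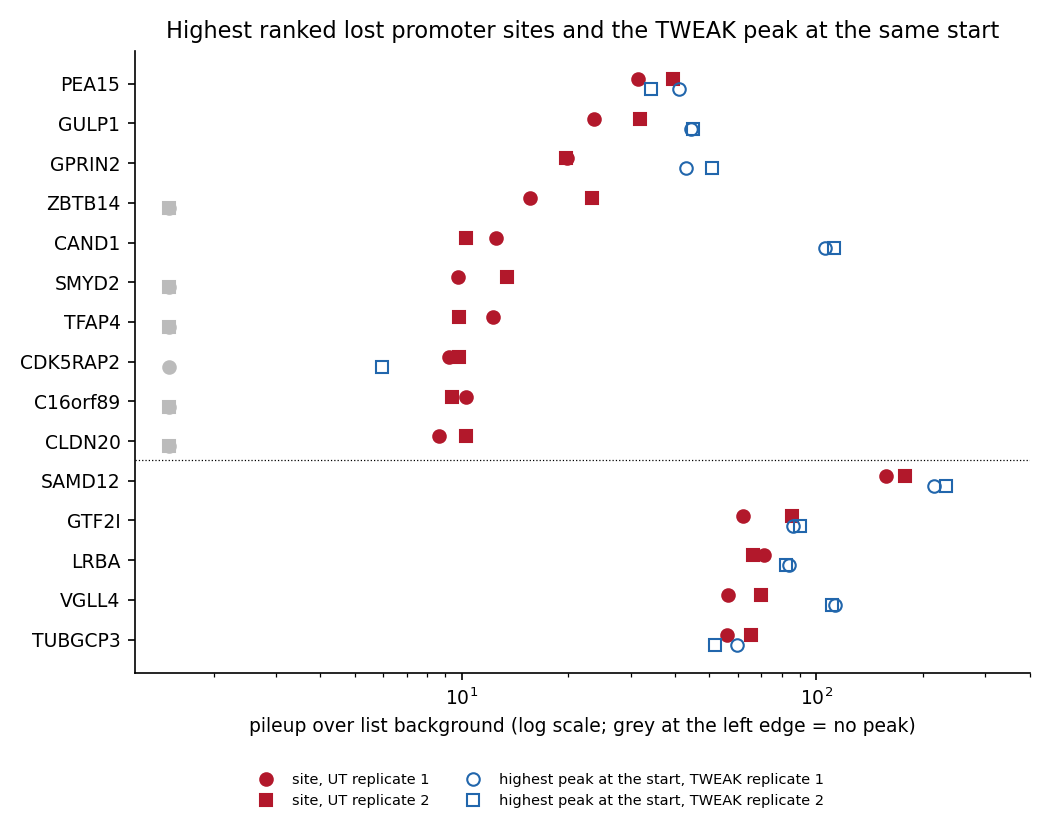
Pileup over the background of the list (x axis, log scale) for the 10 highest ranked members without a TWEAK peak within 500 bp (above the dotted line) and the 5 highest with one (under it), each named by its gene. Filled red symbols are the member's peak in UT replicates 1 (circle) and 2 (square), open blue symbols the highest TWEAK peak within 1 kb of the nearest start, and grey symbols at the left edge mark a library without one, as at ZBTB14, SMYD2, TFAP4, C16orf89 and CLDN20 in both TWEAK libraries.

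Among the 5 highest ranked members with a close TWEAK peak, 4 lay beside a strong one and GTF2I beside a low one. SAMD12 (chr8:118621024-118621555) held the highest of all members, with pileups of 566 and 398 reads, or 158 and 178 times the background. The peak 168 bp from its edge stood at 200 and 234 times in the UT libraries and at 215 and 232 times in the TWEAK libraries, which overlapped. GTF2I, the general factor TFII-I (chr7:74657255-74657756), had a member at 62.2 and 85.4 times, and LRBA, a protein of vesicle traffic (chr4:151015841-151016356), one at 71.1 and 66.2 times. The only TWEAK peak within 500 bp at GTF2I, 317 bp away in TWEAK replicate 1, stood at 9.49 times the background, and the nearest peak of TWEAK replicate 2 lay 595 bp away. The highest peak at the GTF2I start stood at 80.8 and 92.6 times in UT and at 85.8 and 89.9 times in TWEAK cells. VGLL4, a cofactor that binds TEAD (chr3:11771004-11771515), had a member at 56.3 and 69.8 times and a neighbouring peak 81 bp away at 96.5 and 120 times in UT and at 113 and 110 times in TWEAK cells. TUBGCP3, a subunit of the gamma-tubulin complex (chr13:112587347-112587851), had a member at 56.0 and 65.3 times, and the TWEAK peak 61 bp away stood at 59.6 and 52.0 times. At that peak UT replicate 1 stood at 48.5 times and UT replicate 2 had no peak. The highest UT peak at the start was the lost site itself in both UT libraries. At GTF2I, VGLL4 and SAMD12 the UT and TWEAK values of the higher peak overlapped on this scale, while by rank percentile both TWEAK libraries lay slightly below both UT libraries at GTF2I (97.1 and 96.6, against 97.4 in both) and at SAMD12. At LRBA the highest peak at the start stood at 71.1 and 80.5 times in UT and at 83.9 and 82.3 times in TWEAK cells, but the UT replicate 1 value is the lost site itself, and that library had no peak where the TWEAK neighbour lay.

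The 73 genes without any TWEAK peak at a start had low members. The median of the lower UT percentile was 17.6, and at 2 of them, CLDN20 and UNC13C, the member lay above the 50th percentile in both UT lists. UNC13C, a priming factor of synaptic vesicles, had a member at 8.64 and 11.2 times the background, and the next were CYP2A7, a cytochrome P450 gene, at 13.4 and 7.16 times and CRHR1, a receptor of corticotropin-releasing hormone, at 6.69 and 9.84 times. ADH1C, an alcohol dehydrogenase, had one at 5.85 and 6.26 times, and LPAR1, a receptor of lysophosphatidic acid, one at 5.85 and 6.71 times. The list also held the tryptase gene TPSAB1 (5.85 and 9.39 times), the type II keratin KRT72 (5.58 and 6.26 times) and the chemokine receptor CXCR2 (3.90 and 4.47 times). COL3A1, the collagen III chain, stood at 3.07 and 4.47 times and HMGA2, an architectural chromatin protein, at 3.07 and 4.47 times. These genes after CLDN20 were named after their values were seen, and 33 of the 73 had a member that reached the strictest list minimum in both UT libraries.

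Members lay off the usual place of a promoter peak. The peak centre was within 250 bp of the nearest start at 394 (26.9%), against 30.2% of gained and 57.0% of all-library promoter sites, and the median distance was 571 bp, against 503 and 171 bp. More members lay downstream (800, 54.5%, 52.0 to 57.1) than upstream of the start, and the share downstream was 53.9% in sites in 1 UT and 1 TWEAK library, 51.1% in gained sites and 37.8% in sites in all 4 libraries. The site covered a start at 474 members (32.3%), and 849 peak centres (57.9%) fell in introns, 473 (32.2%) in exons and 145 outside both. The canonical start of a gene, the one of its reference transcript, lay within 1 kb of 526 members (35.9%, 33.4 to 38.3). The same held for 45.4% of gained sites (42.6 to 48.2), 46.7% of sites in 1 UT and 1 TWEAK library (45.1 to 48.3) and 60.4% of sites in all 4 libraries. Among members without a TWEAK peak within 500 bp the share was 22.9% (19.96 to 26.2) and among those with one 47.6% (44.1 to 51.1). The interval of the members lay below those of these 3 sets. Of the 733 members that reached the strictest list minimum in both UT libraries, however, 340 (46.4%, 42.8 to 50.004) had a canonical start within 1 kb, against 47.4% of gained sites (44.4 to 50.4) and 53.2% of sites in 1 UT and 1 TWEAK library (51.3 to 55.2) under the same minimum. The interval then overlapped that of the gained sites and still lay below that of the sites in 1 UT and 1 TWEAK library. By chromosome, members were from 1.67% of the promoter sites on chromosome 4 to 4.02% on chromosome 20.

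**Figure D4:**
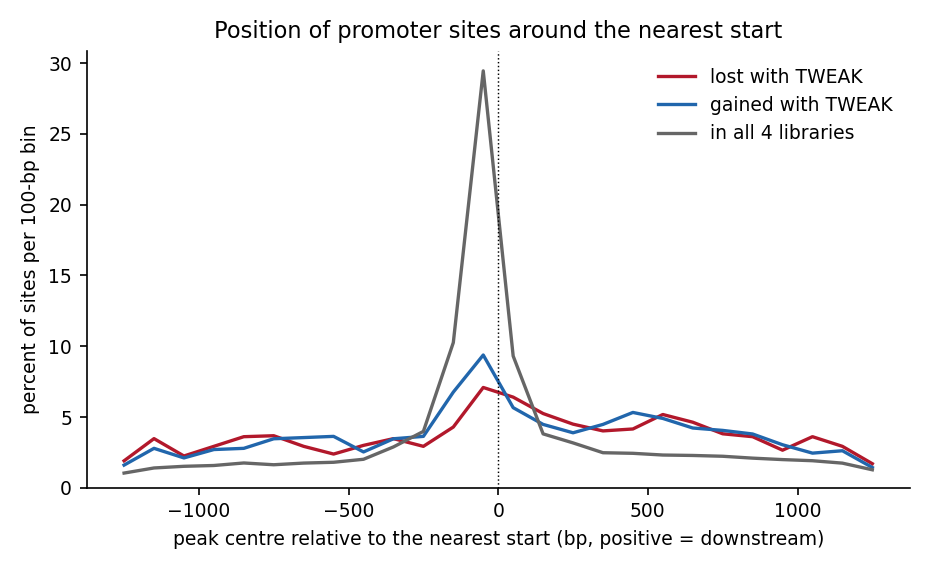
Percent of promoter sites per bin of 100 bp (y axis) by the position of the peak centre relative to the nearest start (x axis, bp, positive downstream). Sites open in all 4 libraries peak at the start, with 57.0% within 250 bp, while lost and gained sites are spread over the flanks, with 26.9% and 30.2% within 250 bp.

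The distance limit set which sites were counted at the edge. The member nearest to the limit lay 999 bp from a start of IPO9 (percentiles 8.03 and 26.2 in the UT lists), and the nearest lost site outside it lay 1001 bp from EVA1A (31.7 and 6.56), a distance that 3 lost sites shared. Starts of several genes lay within 1 kb of 76 members, and 123 genes had 2 or more members. SGK2, a serum- and glucocorticoid-regulated kinase with 13 annotated starts, had 4, and GNAS, the stimulatory G protein alpha subunit, was among those with 3. Both were named after their values were seen. These members share a locus and are not independent of each other.

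Members were poorer in CpG than sites open in all 4 libraries. A CpG island-like sequence, with a GC content over 50% and a ratio of observed to expected CpG over 0.6 across a peak's width, surrounded 211 (14.4%, 12.7 to 16.3), against 16.3% of gained sites, 20.5% of sites in 1 UT and 1 TWEAK library and 48.2% of sites in all 4 libraries. Among the 733 members that reached the strictest list minimum in both UT libraries it was 153 (20.9%, 18.1 to 24.0), against 16.7% of gained sites (14.5 to 19.0) and 25.2% of sites in 1 UT and 1 TWEAK library (23.5 to 26.9) under the same minimum. The median GC content of the sequence within 100 bp of the peak centre was 55.7%, against 52.2% and 61.7% in gained and all-library sites. Members without a TWEAK peak within 500 bp had a median of 3 CpG and were CpG island-like in 8.74% of cases, and those with one had a median of 5 CpG and 19.5%. The printed LRBA and TUBGCP3 stretches are of the CpG-rich kind and those of PEA15, SMYD2 and DTNA of the poor kind.

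Near the peak centre, the motifs of the pathway under study were not more frequent in members than in other promoter sites. Consensus letters were searched on both strands within 100 bp of the peak centre. NF-kB letters were found in 89 members (6.07%, 4.96 to 7.41), against 8.11% of all promoter sites, 8.09% of those in all 4 libraries, 7.85% of those in 1 UT and 1 TWEAK library (7.03 to 8.74) and 16.6% of gained ones (14.6 to 18.8). The AP-1 motif, TGACTCA, was found in 67 members (4.57%, 3.61 to 5.76), against 5.53% of all promoter sites, 4.89% of those in 1 UT and 1 TWEAK library and 10.4% of gained ones (8.78 to 12.3). For both motifs the interval of the lost sites lay below that of the gained sites without overlap. Over the whole peak width the shares of members were 17.3% and 8.86%, and the other sets were not counted in that window. The longer NFE2 and small MAF motif, which contains the AP-1 letters, was found in 5 members (0.341%), against 0.354% of all promoter sites and 0.930% of gained ones.

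Motifs common in active promoters were rarer in members than in sites open in all 4 libraries. The SP/KLF letters GGGCGG were found in 251 members (17.1%, 15.3 to 19.1), against 42.5% of sites in all 4 libraries, 30.9% of all promoter sites, 15.8% of gained sites and 19.5% of those in 1 UT and 1 TWEAK library. The ETS letters CCGGAAG were found in 30 members (2.04%, 1.44 to 2.90), against 8.14%, 5.25%, 2.37% and 2.38% of the same sets. NFY (CCAAT) was found in 19.3% of members against 22.3% of all promoter sites, TFAP2 (GCCNNNGGC) in 16.3% against 18.5%, and the E-box CACGTG in 4.36% against 4.85%. The GATA factor letters AGATAA were found in 5.79% of members against 4.59%, FOXA (TGTTTAC) in 2.73% against 2.98% and TEAD (ACATTCC) in 2.79% against 3.22%. The CRE element TGACGTCA was found in 0.341% of members against 0.860%, NRF1 (GCATGCGC) in 0.409% against 1.43%, YY1 (ATGGCGGC) in 0.409% against 1.19%, and CTCF in 0.545% against 1.30%. GRHL (AACCNGGTT) and ZBTB33 (CTCGCGAG) were found in 0 of 1467 members, which allows a share of up to 0.204% by a limit of 3 counts and up to 0.261% by the Wilson interval, against 0.174% and 0.462% of all promoter sites. A match of letters is a description of the sequence and not of a bound factor.

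**Figure D5:**
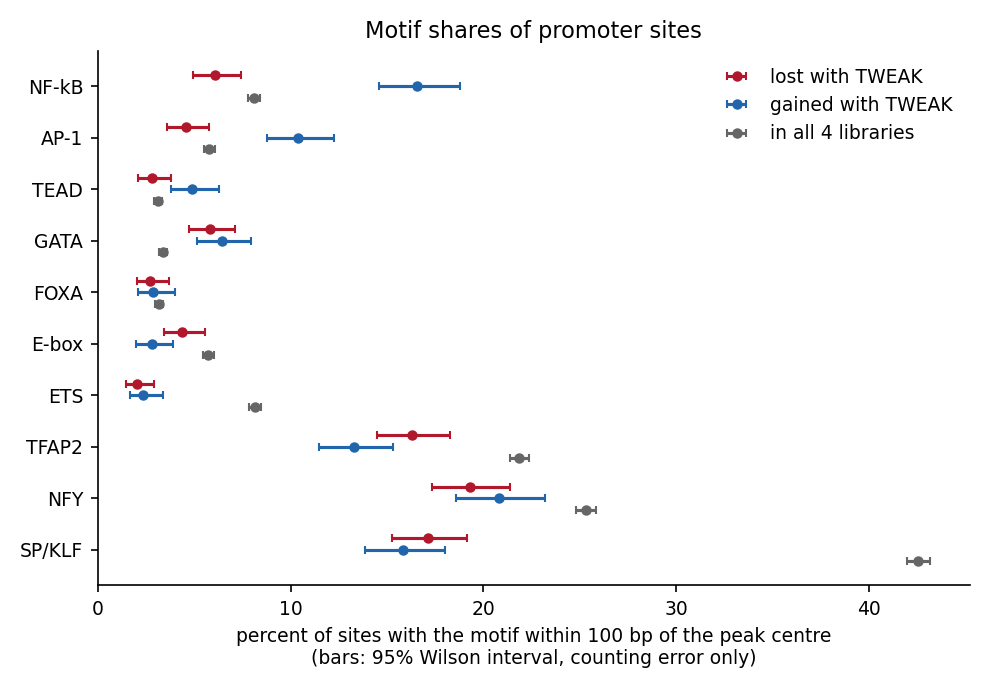
Percent of promoter sites with a motif within 100 bp of the peak centre (x axis) for 10 motifs (y axis), with bars for the 95% Wilson interval. Lost sites lie at 6.07% for NF-kB and 4.57% for AP-1, to the left of gained sites at 16.6% and 10.4%, and both lie far to the left of shared sites for SP/KLF (17.1% and 15.8% against 42.5%).

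Across 17 gene lists, the share of genes with a member is read against 7.06% of all protein-coding symbols, and the share with a gained site against 6.01%. Of 30 genes of TWEAK and NF-kB signalling, 1 had a lost site and 8 a gained one (BIRC2, BIRC3, CHUK, IKBKG, MAP3K7, NFKBIE, TNFAIP3 and TNIP1). The lost site was at TRAF1, an adaptor of tumour necrosis factor receptors, at 4.46 and 4.47 times the background, and the main TRAF1 peak stood at 11.99 and 14.3 times in UT and at 12.5 and 14.6 times in TWEAK cells, values that overlapped, while its rank percentiles were lower in both TWEAK libraries (62.5 and 60.4, against 65.7 and 68.9). Of 22 NF-kB target cytokines and adhesion genes, 1 had a lost site and 4 a gained one. It lay over a start of SOD2, the mitochondrial superoxide dismutase, at 6.41 and 5.82 times, 46 bp from a peak of 16.4 and 14.8 times in UT and 17.5 and 10.8 times in TWEAK cells. Of 18 AP-1, small MAF and CNC factors, 2 had a lost site, MAFG (3.62 and 5.37 times) and NFE2 (3.90 and 5.82 times, a site shared with COPZ1), and 4 had a gained one, MAFG and NFE2 among them.

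Among lineage and matrix genes the members were mostly low, with ITGB8 as the high one. Of 24 EMT and matrix genes, 3 had a lost site and 2 a gained one. At ITGB8, the integrin beta 8 chain that activates latent TGF-beta, the member covered a start (chr7:20330408-20330926) at 51.6 and 56.8 times the background in UT cells, and the shared peak 380 bp away stood at 37.4 and 46.5 times in UT and at 96.1 and 98.0 times in TWEAK cells. The highest peak of this promoter was thus the lost site in UT cells and its neighbour in TWEAK cells, with no overlap between the groups at the neighbour. At SPARC, a matrix glycoprotein, the member stood at 4.18 and 3.58 times and the shared neighbour at 2.79 and 4.03 times in UT and at 7.60 and 9.75 times in TWEAK cells, also without overlap. MMP14, a membrane-bound matrix metalloproteinase, had a member over a start at 3.35 and 6.26 times and no TWEAK peak within 1 kb of any of its 6 starts. Of 25 luminal lineage and ERBB genes, 2 had a lost site, GATA3 (3.90 and 4.92 times) and the progesterone receptor gene PGR (3.35 and 4.92 times), and 2 a gained one.

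Of 25 apoptosis genes, 2 had a lost site and 4 a gained one. At BBC3, which encodes the BH3-only protein PUMA, the member (chr19:47226037-47226538) stood at 49.9 and 48.8 times the background, and the neighbouring peak at 51.3 and 53.7 times in UT and at 71.4 and 75.3 times in TWEAK cells, higher in both TWEAK libraries. Of 38 cell cycle genes, 3 had a lost site (CDKN2A, MCM4 and TOP2A) and 1 a gained one. MCM4, a subunit of the replicative helicase, had 2 members, the higher at 6.97 and 8.05 times, and TOP2A, topoisomerase II alpha, had one at 4.18 and 4.92 times. Of 27 interferon and antigen presentation genes, 2 had a lost site, ISG15 (4.46 and 3.13 times) and the class II transactivator CIITA (3.07 and 4.47 times), and 3 a gained one. Of 35 chromatin regulators, 2 had a lost site and 6 a gained one. RAD21, the cohesin subunit, had a member over a start at 19.8 and 14.8 times beside a peak of 23.7 and 25.1 times in UT and 30.004 and 28.2 times in TWEAK cells, higher in both TWEAK libraries on this scale, while its rank percentiles overlapped (81.2 and 80.9 in UT, 83.1 and 78.1 in TWEAK cells). DNMT3B, a DNA methyltransferase, had one at 4.46 and 8.05 times with no TWEAK peak within 7019 bp.

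The larger families gave counts near the background or on either side of it. Of 476 ZNF zinc finger genes, 26 (5.46%) had a lost site and 7 (1.47%) a gained one. The highest lay at ZNF487 (51.9 and 53.7 times), ZNF7 (46.0 and 53.7 times) and ZNF165 (30.7 and 25.1 times), each with a TWEAK peak within 255 bp. Of 384 solute carrier genes, 41 (10.7%) had a lost site, 20 (5.21%) a gained one and 4 of these had both. The highest lay at the zinc transporter SLC30A7 (16.7 and 16.6 times), the mitochondrial carrier SLC25A30 (13.1 and 13.4 times) and the nucleotide sugar transporter SLC35D1 (15.3 and 12.1 times). Of 100 genes of the mitochondrial respiratory chain, 7 had a lost site and 2 a gained one, and the highest, at NDUFAF2, an assembly factor of complex I, stood at 10.0 and 9.84 times. Of 84 cytosolic ribosomal protein genes, 4 had a lost site (RPL22, RPL35A, RPL39 and RPL8) and 5 a gained one, and RPL22 stood at 5.02 and 4.92 times. Of 39 HOX genes, 2 had a lost site, HOXA5 (3.62 and 4.47 times) and HOXA9 (3.35 and 4.03 times), and 1 a gained one. Of 400 olfactory receptor genes, 2 had a lost site and 2 a gained one, where only 37 had a promoter site of any pattern. No lost site was found at 19 genes of NAD synthesis and consumption or at 63 replication-dependent histone genes, of which 2 each had a gained one.

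Genes with a lost and a gained promoter site numbered 140, or 9.93% of the 1410 genes with a lost site and 11.7% of the 1199 with a gained one. Of all 19962 protein-coding symbols, 6.01% had a gained site and 7.06% a lost one, but these include genes without any promoter peak. The shares among genes with a peak at a start were not counted. The lost and the gained sites come from the same 4 lists. The label of the line was checked against promoter peaks of marker genes. Of 10 markers of HER2-positive luminal epithelium, ERBB2, KRT8, EPCAM and 6 others had a promoter site open in all 4 libraries, and CDH1, the E-cadherin gene, had no peak at a start in any library. SKBR3 is known to have lost CDH1 by a deletion. Of 10 markers of other cell types, 6 also had such a site, COL1A1, COL1A2 and VIM among them, and PTPRC, CD3E, LYZ and PECAM1 had none. No lost site was found at any of these 20 genes, too few to set against the 7.06% of all protein-coding symbols.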

How the data were processed

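Peaks of 4 SKBR3 ATAC-seq libraries were used, with groups and replicate numbers from the sample titles. The submitters' processing notes name Trimmomatic, Bowtie2, Picard, MACS2 and hg38, and the study's methods add removal of mitochondrial reads with Bamtools. Versions, caller settings and any shift of reads for the transposase are not given in the sources used here. The authors deposited 1 peak list per library, without pooling, with a value per peak that neither header nor labels name. Read from the values, it is the -log10 of an uncorrected p-value by the authors' peak caller: 100% of the deposited values were reproduced within 0.01 by a Poisson tail of a whole-number pileup over 1 background per list, with a lowest value just past p 0.01. Another convention of the caller would shift each pileup by 1. The lists held 208407, 228734, 218423 and 195388 peaks (UT replicates 1 and 2, TWEAK replicates 1 and 2). Read totals are not given, so the background stands for depth.

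Peaks on chromosomes 1 to 22 and X were merged at an overlap of at least 1 bp. Starts were those of all transcripts of protein-coding genes in GENCODE release 44 (hg38), and distances run from the edge of a site. A lost site had peaks in both UT lists and in neither TWEAK list. Height is pileup over the list background, and rank is the percentile within the list. For a site with several peaks in a library the highest was used. Motifs (17) and sequence features were read from hg38 around the centre of the best ranked peak. Sequences printed are from that genome. Shares carry 95% Wilson intervals, which cover counting error only, since sites of 1 library share their source and are no replicates of a condition. With 2 against 2 libraries no permutation p could fall below 0.333, and no test was made. The study's DiffBind comparison works on reads, so it could not be repeated from peak lists. Members, gene lists (17) and motifs were chosen with earlier results of these data known.

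Named sites were the 10 highest ranked without and the 5 with a TWEAK peak within 500 bp, by the lower UT percentile, up to 3 members of each list, and the lost sites on each side of the 1 kb limit. Other genes are said to be named after their values were seen. Scripts were tested on simulated peak lists. Python 3.11.15, numpy 2.4.6, scipy 1.17.1, pysam 0.24.0 and matplotlib 3.10.9 were used.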

Additional observations from a re-analysis of the deposited data

How the results depend on the processing

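The 1467 lost sites became 910 at a -log10 p of at least 5, 635 at 5 times the background and 842 at the strictest list minimum (an alternative chosen after seeing the data). They became 698 (519 gained) when a peak of the other treatment within 500 bp counted as present, 930 with starts of protein-coding transcripts only and 493 (515 gained) with 1 start per gene. Leaving out 1 library gave 2793 to 5783 lost and 2519 to 3859 gained sites, since fewer lists then had to agree. The share with a TWEAK peak within 500 bp was 56.1% at 5 times the background, 60.5% at the strictest minimum, 49.1% within 2 kb of a start, 55% by site centre, 58.9% with protein-coding transcripts, 68.2% with 1 start per gene and 48.3% to 56.6% without 1 library. The share whose nearest start had a TWEAK peak was 68.9% at the strictest minimum, 30.5% when close peaks counted as present, 66.9% within 2 kb, 74.0% with protein-coding transcripts, 80.5% with 1 start per gene and 60.2% to 68.4% without 1 library. The NF-kB share was 17.3% over the whole peak, and the AP-1 share was 3.297% at a -log10 p of at least 5 and 8.86% over the whole peak, a longer window in both cases. In 13 of 14 alternatives for NF-kB and 12 of 14 for AP-1 the share moved by less than its interval. Where no construction is named, the cause was not tested. No paired analysis was possible because the results come from no test. Sites near the threshold of 7 to 10 reads cannot be told from sites just under it, and the lists hold no value where a peak was not called.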
